A study of Homo sapiens with 12 samples.

Results

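Potassium channel genes are described here, 95 of the 58721 genes in the count table, all protein coding. They were chosen by symbol alone: KCN, at least 1 further letter, a number and at most 1 closing letter, with antisense genes and pseudogenes left out. The cells were EW8 and TC71, established cell lines of Ewing sarcoma, a bone and soft tissue tumour driven by the EWS-FLI1 fusion. Both lines carried a lentiviral Tet-On pair, in which a Tet3G transactivator made from the EF1 alpha promoter switches on a TRE3G promoter when doxycycline is present, and the induced transcript encodes c-Jun and c-Fos joined by a self-cleaving peptide. Each line received vehicle (DMSO) or doxycycline at 2000 ng/ml for 72 h, with 3 libraries in each of the 4 groups. The labels call vehicle cells WT and doxycycline cells AP1_overexpression, although the constructs were in all of them, and the carriers were a drug-selected population of infected cells. No doxycycline-treated cells without the c-Jun and c-Fos construct were used here, so the effect of doxycycline and that of the transgenes cannot be told apart.

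Potassium channels let potassium leave the cell along its gradient and so hold the membrane at a negative voltage. Voltage-gated channels open when the membrane depolarises, and their pore subunits work with silent subunits, which form no pore alone, and with accessory subunits, which change gating or traffic. Inward rectifiers pass current best near and below the resting voltage, two-pore channels leak potassium at rest, and calcium-activated channels open when cytosolic calcium rises. In tumour cell lines these channels are studied for their part in volume control, division and migration.

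The members comprised 52 voltage-gated genes (30 pore, 10 silent and 12 accessory), 16 inward rectifiers, 15 two-pore genes and 12 calcium-activated genes (8 pore, 4 accessory). The sodium-activated KCNT genes and the sperm channel gene KCNU1 were placed with the calcium-activated BK gene, to whose Slo family they belong. A filter on low counts left 57 members for testing. The other 38 never exceeded 24 counts in any library, 25 of them never exceeded 6 counts, and 10 had no counts at all, which leaves their transcripts below detection at this depth. They were 20 voltage-gated, 8 inward rectifier, 7 two-pore and 3 calcium-activated genes. Among them were KCNQ1, KCNJ2, KCNK1, KCNK2 and KCNN2, whose channels are well known in heart, nerve or epithelium. Since a member can pass the filter through 1 group in which it is high, the 57 are not a sample of all members.

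Total counts ran from 42860665 to 60853649 per library, with each mate of a pair counted by itself. Levels are given as CPM, counts per 1000000 counts of the scaled library, and levels of different genes are compared only as CPM per kilobase of exon. JUN rose from 21.6 ± 2.61 to 473.7 ± 44.8 CPM in EW8 and from 20.7 ± 4.01 to 755.5 ± 54.6 CPM in TC71, and FOS from 36.8 ± 0.814 to 1078 ± 72 and from 11.7 ± 0.426 to 1580 ± 120 CPM (SD, n = 3). All 8 Ewing sarcoma markers examined, CD99 and NR0B1 among them, were detected in every group, but their levels were not constant. LIPI fell with doxycycline from 47.7 ± 3.31 to 18.1 ± 2.07 CPM in EW8 (log2 change -1.40), the 1 call among these markers. By adjusted p alone, 5 of the 8 went down in EW8 and 1 went up (CD99). For TC71 the same threshold gave 4 down and 2 up (CD99 and NR0B1). What these changes contribute to the results was not tested. TC71 vehicle replicate 1 stood apart: it differed from replicates 2 and 3 by a chi-square per gene of 63.9 and 61.7, against 5.4 to 11 for the other replicate pairs. Several results that moved when this library was left out are also given without it. The summed level of 6 epithelial markers moved with doxycycline, from 10.9 to 11 CPM up to 95.4 to 105.8 CPM in EW8 and from 176.5 to 215.7 up to 287.9 to 308.2 CPM in TC71. The markers called higher were CLDN4 in both lines, KRT8 and KRT18 in EW8 and EPCAM in TC71. KRT18 went from 193.7 ± 18.6 to 218.1 ± 7.39 CPM in TC71, with overlapping libraries, and was not called there (0.17). CDH1 and KRT19 stayed under 0.2 CPM in every group mean. The part of these marker shifts in the results was not tested. The 6 fibroblast markers summed to 91.8 to 159 CPM over all libraries. With doxycycline 2 of them (LUM and PDGFRB) were called lower in EW8, and in TC71 2 were called higher (COL1A1 and COL1A2) and 3 lower (DCN, LUM and PDGFRB), and the part of these shifts in the results was not tested either. Leukocyte markers summed to 65.5 to 81.8 CPM in EW8, nearly all of it PTPRC, and to at most 1.15 CPM in TC71, with CD3E at or near 0 in both. In such bulk samples, more cells with a transcript and more transcript per cell cannot be told apart.

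A gene was called when its adjusted p was under 0.05 and its log2 fold change was over 1 in size, by edgeR's quasi-likelihood test with Benjamini-Hochberg adjustment over all 21013 genes tested. In EW8, 10 of the 57 tested members were called higher with doxycycline, against 11.4% of all tested genes, and 6 were called lower, against 3.38%. As shares of the tested members these were 17.5% and 10.5%. In TC71, 14 members (24.6%) were called higher, against 12.3% of all genes, and 4 (7.02%) lower, against 3.67%. Without TC71 vehicle replicate 1 the TC71 counts were 14 higher and 6 lower. The median log2 fold change of the members was -0.13 in EW8, with -0.03 for all tested genes, and -0.02 in TC71, with 0 for all. With members that had no counts in 1 group set to their bound, these medians stayed at -0.13 and -0.02. By adjusted p alone, 14 members were higher (21.9% of all genes) and 12 lower (22%) in EW8, and 16 higher (25.1%) and 11 lower (20.4%) in TC71. In all, 24 members were called in 1 line or both, with 34 called responses.

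Called higher in both lines were 9 members: KCNN1, KCNN3, KCNN4, KCNMA1, KCNK3, KCNK9, KCNC4, KCNG1 and KCNH4. KCNA2 was the 1 member called lower in both. KCNU1 was called higher in EW8 alone, and KCNAB1, KCNJ5, KCNK6, KCNK13 and KCNV1 in TC71 alone. No member was called in opposite directions. How often the lines shared or opposed a call was not counted over all genes, so this overlap is not read as a trait of the members. The plot of the responses of both lines shows these positions.

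**Figure D1:**
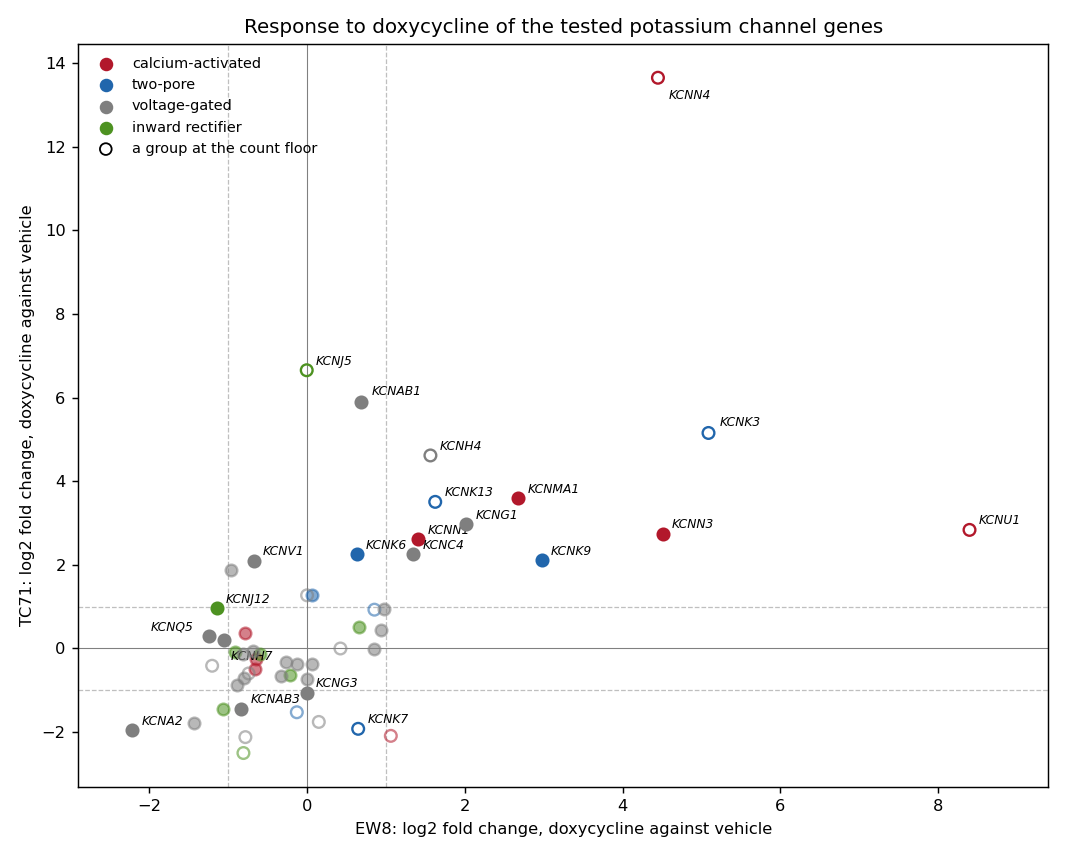
Log2 fold change with doxycycline in EW8 (x axis) and in TC71 (y axis) for 55 tested potassium channel genes, coloured by class, with named points for members called in a line and dashed lines at the fold limit. Open points have a group at or under 6 counts in every library, so that their fitted value depends on the prior count, as for KCNN4, which had no counts in TC71 vehicle cells. Filled calcium-activated points for KCNN1, KCNN3 and KCNMA1 lie above the limit on both axes, and KCNA2 lies under it on both.

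Promoter windows from RefSeq (GRCh38.p14) were searched because several genes of 1 family moved together. Windows of 300 bases, 250 before to 50 after each listed start, were found for 71 of the 95 members. The letters TGANTCA, which AP-1 is known to bind and which read the same on both strands, were present in at least 1 window of 9 of these 71 members (12.7%) and of 9.37% of all 27305 genes with a window. Counted per window, the shares were 8.26% of 109 and 7.71% of 35116. Of the 15 members called higher in a line, 11 had a window and 3 of them held the letters: KCNN3, KCNMA1 and KCNAB1. In all 3 they stood before an alternative start inside the gene. The sequences are shown, 5′ to 3′ on the strand of the gene with TGANTCA in capitals, since these are the riser windows with the letters.
KCNN3, minus strand, chr1:154859877-154859948, match 27 bases before a start: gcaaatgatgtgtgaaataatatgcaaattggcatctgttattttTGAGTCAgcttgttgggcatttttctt
KCNMA1, minus strand, chr10:77350844-77350940, first match 134 bases before a start: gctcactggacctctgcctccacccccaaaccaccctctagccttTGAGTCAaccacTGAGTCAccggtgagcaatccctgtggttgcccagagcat
KCNAB1, plus strand, chr3:156142715-156142811, match 202 bases before a start: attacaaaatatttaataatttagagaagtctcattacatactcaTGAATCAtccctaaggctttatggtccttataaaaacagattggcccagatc

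The windows of KCNN1, KCNN4 and KCNK3 held no such match. The bases just before a start of KCNN1 and KCNN4 are shown for comparison, with the letters GGGCGG on either strand in capitals. These letters were in at least 1 window of 66.2% of the members and of 48.3% of all genes.
KCNN1, plus strand, chr19:17966977-17967106: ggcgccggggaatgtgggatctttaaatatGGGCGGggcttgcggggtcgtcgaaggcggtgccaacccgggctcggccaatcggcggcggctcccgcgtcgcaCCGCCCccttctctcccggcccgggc
KCNN4, minus strand, chr19:43780974-43781103: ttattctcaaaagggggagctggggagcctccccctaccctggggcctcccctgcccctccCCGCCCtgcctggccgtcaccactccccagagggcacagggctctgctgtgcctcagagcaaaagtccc

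The letters GGAAGGAA, a short form of the repeats that EWS-FLI1 is known to bind, were in windows of 6 of the 71 members (8.45%) and of 4.5% of all genes, both strands searched. Among the members called in a response, KCNK6 alone of the 15 with a window held them.
KCNK6, plus strand, chr19:38319605-38319702, match 195 bases before the start, in capitals: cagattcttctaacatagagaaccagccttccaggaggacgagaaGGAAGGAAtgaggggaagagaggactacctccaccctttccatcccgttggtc

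Of 8 calcium-activated pore genes 6 were tested, and 5 of these were called higher in EW8 and 4 in TC71. Over all tested genes, 11.4% were called higher in EW8 and 12.3% in TC71. KCNU1, among the 5 in EW8, passed the low-count filter only through the EW8 doxycycline libraries, where it was high. Its call therefore adds no weight to this count. KCNN1, KCNN3 and KCNN4 encode small and intermediate conductance channels, which sense calcium through bound calmodulin. KCNMA1 encodes the large conductance BK channel, which is opened by calcium and by voltage. Whether the share called differs between the classes was not tested.

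KCNN1 (chromosome 19, 17951293 to 18000080) was the most abundant pore gene in every group. Its level was 73.5, 80.8 and 85.1 CPM in the EW8 vehicle libraries and 236, 210 and 190 CPM with doxycycline. In TC71 it was 28, 21.3 and 22.7 CPM with vehicle and 147, 155 and 137 CPM with doxycycline. The groups did not overlap within either line, and the induced TC71 libraries exceeded all EW8 vehicle libraries. The log2 change was 1.41 in EW8 (SE 0.09, adjusted p 6.61e-10) and 2.61 in TC71 (SE 0.10, adjusted p 1.76e-13). TC71 responded more, by 1.20 on the log2 scale (SE 0.13, adjusted p 3e-06, interaction), starting from a vehicle level that was lower by 1.73 (SE 0.10, adjusted p 2.78e-11).

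KCNN3 (chromosome 1, 154697455 to 154870280) was low in vehicle cells, at 1.35, 1.31 and 0.826 CPM in EW8, and at 25.5, 27.6 and 25.8 CPM with doxycycline. The log2 change in EW8 was 4.51 (SE 0.32, adjusted p 1.37e-09). Within TC71 the vehicle libraries held 0, 14 and 2 counts and the doxycycline libraries 24, 43 and 16, a log2 change of 2.74 (SE 0.57, adjusted p 0.00059). It was 2.13 without TC71 vehicle replicate 1 and 4.91 without TC71 vehicle replicate 2, which held 14 of the vehicle counts. KCNN3 therefore rose in both lines but stayed under 1.1 CPM in each TC71 library. The 2 responses differed by -1.77 (SE 0.79, adjusted p 0.135), by -2.43 (adjusted p 0.00778) without TC71 vehicle replicate 1, and by 0.40 (adjusted p 0.842) without TC71 vehicle replicate 2, so that neither the size nor the sign is settled.

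KCNN4 (chromosome 19, 43766533 to 43781261) was close to silent without doxycycline. EW8 vehicle libraries were at 0.0902, 0.174 and 0.503 CPM and EW8 doxycycline libraries at 6.35, 7.09 and 4.41 CPM, a log2 change of 4.45 (SE 0.33, adjusted p 1.24e-08), or 5.50 without EW8 vehicle replicate 3. No TC71 vehicle library had a count for it, while the TC71 doxycycline libraries had 1330, 1527 and 1295 counts, or 32.2, 36.5 and 29.5 CPM. Against a floor of 6 counts per library, which is 3 read pairs, KCNN4 was at least 281-fold higher with doxycycline in TC71 (adjusted p 5.53e-12). After induction the TC71 libraries lay above all EW8 libraries, the reverse of the vehicle order. Under vehicle the EW8 mean was at least 2.20-fold higher, but this bound rests largely on EW8 replicate 3. The EW8 vehicle libraries held 4, 8 and 28 counts, and replicate 1 was itself under the floor.

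KCNMA1 (chromosome 10, 76869601 to 77638369) was at 3.77, 3.03 and 3.56 CPM in vehicle-treated EW8 and at 21.7, 23.9 and 20.8 CPM with doxycycline. The log2 change was 2.68 (SE 0.23, adjusted p 2.64e-08). Within TC71 the same gene went from 0.267, 0.0644 and 0.155 CPM to 2.88, 1.58 and 1.34 CPM, a log2 change of 3.59 (SE 0.36, adjusted p 1.76e-07), or 4.07 without TC71 vehicle replicate 1. All induced TC71 libraries were still below all EW8 vehicle libraries. Because its annotated exons add up to 35644 bases, KCNMA1 ranked low per kilobase, at 0.62 CPM per kilobase in induced EW8 cells, where KCNN1 was at 53.3.

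KCNU1, which encodes the Slo3 channel of sperm, had no counts in the EW8 vehicle libraries and 40, 58 and 31 counts with doxycycline, at least 6.33-fold higher (adjusted p 0.000135). TC71 libraries held 2 counts of it in all. KCNT2, a sodium-activated channel gene, was 6.68 ± 0.422 CPM in vehicle-treated EW8 and 4.21 ± 0.189 with doxycycline, and 6.75 ± 0.81 and 4.78 ± 0.457 CPM in TC71. Its log2 differences of -0.66 (adjusted p 0.00147) and -0.50 (adjusted p 0.0112) passed the p threshold without reaching the fold limit. Among the partners of BK, KCNMB4, the brain-type beta subunit, was at 16.8 ± 0.864 CPM in vehicle-treated EW8 and 9.72 ± 1.59 CPM with doxycycline, a difference of -0.79 (SE 0.16, adjusted p 0.000394). Within TC71 it was 2.7 ± 0.29 and 3.49 ± 0.724 CPM (0.37, adjusted p 0.0962). That difference in response was 1.16 (SE 0.23, adjusted p 0.0015) and fell under the fold limit without TC71 vehicle replicate 1 (0.95), EW8 doxycycline replicate 2 (0.95) or TC71 doxycycline replicate 2 (0.996).

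**Figure D2:**
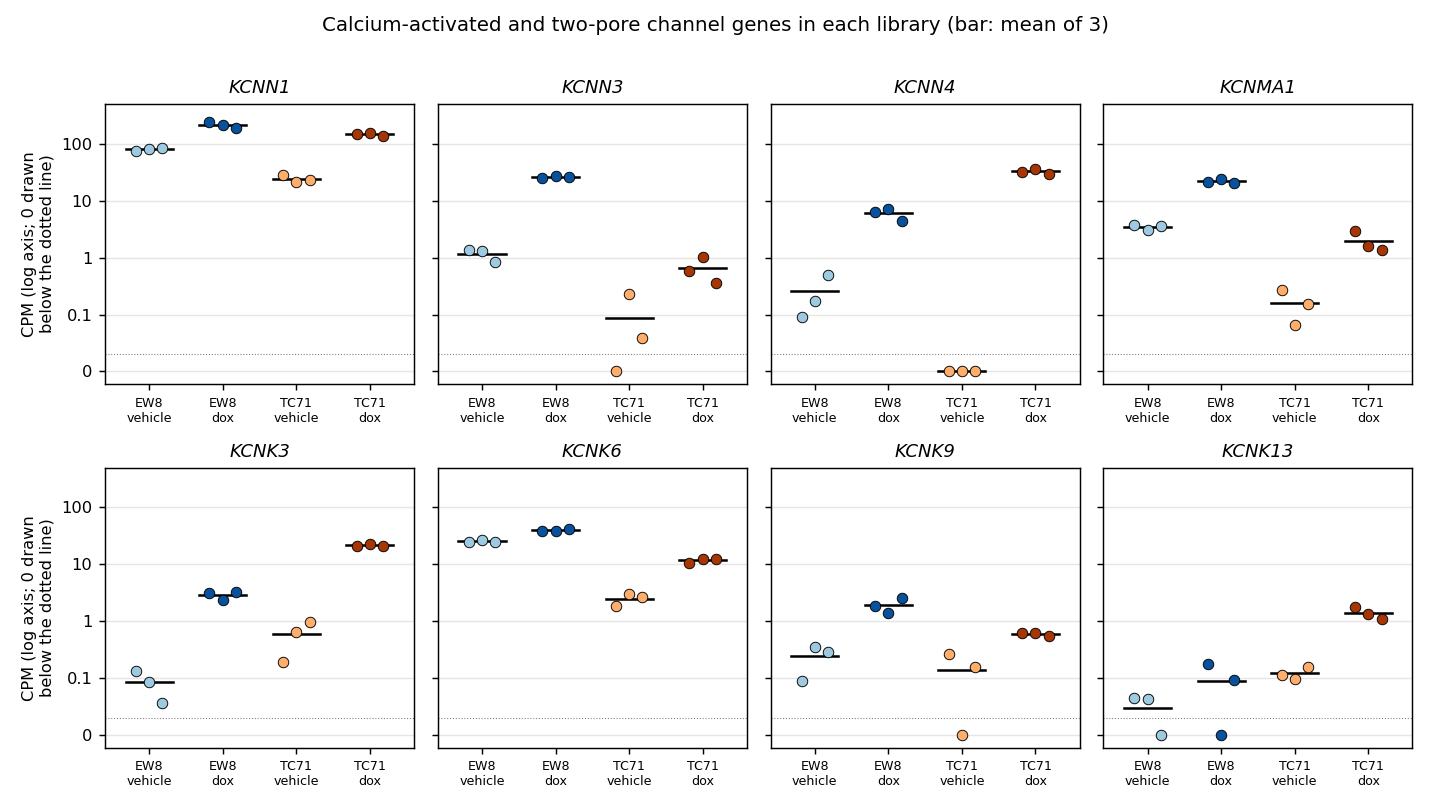
CPM on a log axis in each of the 12 libraries for 4 calcium-activated and 4 two-pore channel genes, with points for libraries, bars for the mean of 3 and zeros drawn under the dotted line. KCNN4 had no counts in the 3 TC71 vehicle libraries and 29.5 to 36.5 CPM with doxycycline, and the KCNK6 libraries of EW8 did not overlap, at 24.6 to 26.3 CPM with vehicle and 37.9 to 41.7 CPM with doxycycline.

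Two-pore genes were called higher in 2 of 8 tested cases in EW8 and in 4 of 8 in TC71, and 1 was called lower in TC71. Over all tested genes 11.4% were called higher in EW8, and in TC71 12.3% were called higher and 3.67% lower. KCNK3 and KCNK9 encode TASK-1 and TASK-3, leak channels that close in acid. KCNK3 (chromosome 2, 26692690 to 26733420) had 6, 4 and 2 counts in EW8 vehicle cells and 172, 118 and 144 with doxycycline, a ratio of 35.1 (95% counting interval 15.9 to 96.7, adjusted p 3.51e-08). In TC71 it was at 0.191, 0.644 and 0.97 CPM with vehicle and 21.1, 22.9 and 20.5 CPM with doxycycline. That log2 change was 5.15 (SE 0.32, adjusted p 1.64e-10) and 4.67 without TC71 vehicle replicate 1, the lowest of the 3. KCNK3 was thus higher in the induced TC71 libraries than in the induced EW8 libraries, at 2.33 to 3.29 CPM.

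KCNK9 went from 0.242 ± 0.135 to 1.94 ± 0.609 CPM (EW8), a log2 change of 2.98 (SE 0.64, adjusted p 0.000944). Within TC71 the values were 0.141 ± 0.134 and 0.599 ± 0.0463 CPM (2.11, SE 0.69, adjusted p 0.0182), and the call was lost when the TC71 libraries were fitted alone. The value was 2.92 without TC71 vehicle replicate 1 and 1.49 without TC71 vehicle replicate 2. KCNK6 encodes TWIK-2, a weak channel found largely in endolysosomes. It was 24.9, 26.3 and 24.6 CPM in vehicle-treated EW8 and 37.9, 38 and 41.7 CPM with doxycycline, a difference of 0.63 (SE 0.12, adjusted p 0.000251) under the fold limit. In TC71 it rose from 1.83, 2.96 and 2.64 CPM to 10.6, 12.5 and 12.4 CPM, a log2 change of 2.25 (SE 0.14, adjusted p 1.82e-10). TC71 responded more, by 1.62 (SE 0.18, adjusted p 3.59e-06), or 1.32 without TC71 vehicle replicate 1.

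KCNK13, which encodes THIK-1, had 6, 6 and 8 counts in TC71 vehicle cells and 74, 56 and 48 with doxycycline, a log2 change of 3.51 (SE 0.76, adjusted p 0.000885). In EW8 it stayed at 10 counts or fewer in every library. KCNK7, a two-pore gene whose product carries little current alone, had 12, 25 and 10 counts in TC71 vehicle cells and 4, 4 and 1 with doxycycline, a ratio of vehicle to doxycycline of 3.67 (95% counting interval 1.37 to 12.3, adjusted p 0.0436). This call was lost in 9 of 17 alternatives, namely with no filter, with a replicate block, and without EW8 vehicle replicate 1 or 3, EW8 doxycycline replicate 2, TC71 vehicle replicate 2 or any TC71 doxycycline replicate.

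Inward rectifiers gave 1 call in each line, from 8 tested (12.5%). In either direction, 14.8% of all tested genes were called in EW8 and 16% in TC71. KCNJ12, which encodes Kir2.2, was at 13, 15.6 and 15.3 CPM in vehicle-treated EW8 and 7.27, 6.74 and 5.8 CPM with doxycycline, a log2 change of -1.15 (SE 0.33, adjusted p 0.00786). The call was lost with DESeq2 and without EW8 doxycycline replicate 3. KCNJ18 is a near-identical copy of KCNJ12, so reads can be lost or split between them. KCNJ5, which encodes a subunit of the G protein-gated channel of heart, had no counts in TC71 vehicle cells and 10, 18 and 4 with doxycycline, at least 2.19-fold higher (adjusted p 0.000795). In EW8 its level was 0.188 ± 0.0883 and 0.189 ± 0.0848 CPM. Neither pore gene of the ATP-sensitive channels was called: in EW8 KCNJ8 differed by 0.66 (adjusted p 0.192) and in TC71 by 0.51 (adjusted p 0.628), with -0.21 (adjusted p 0.753) and -0.62 (adjusted p 0.299) for KCNJ11. KCNJ14, the most abundant of the class per kilobase in TC71 vehicle cells, was at 0.91 ± 0.193 and 0.592 ± 0.421 CPM in EW8 and at 1.27 ± 0.49 and 1.16 ± 0.395 CPM in TC71.

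Of 17 voltage-gated pore genes tested, 5 (29.4%) were called lower in EW8, against 3.38% of all tested genes, and 2 (11.8%) higher, against 11.4%. In TC71, 2 (11.8%) were called higher, against 12.3% of all tested genes, and 1 (5.88%) lower, against 3.67%. KCNA2 (chromosome 1, 110519837 to 110631474) encodes Kv1.2, a Shaker-type channel of axons. EW8 vehicle libraries were at 139, 125 and 143 CPM and EW8 doxycycline libraries at 29.4, 25.3 and 32.7 CPM, a log2 change of -2.22 (SE 0.13, adjusted p 1.47e-10). TC71 vehicle libraries were at 2.18, 1.26 and 1.75 CPM and doxycycline libraries at 0.291, 0.717 and 0.319 CPM, a log2 change of -1.95 (SE 0.28, adjusted p 1.48e-05). The lines therefore moved the same way from levels that lay far apart, and the 2 responses differed by 0.27 (SE 0.35, adjusted p 0.679).

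The KCNQ genes encode the Kv7 channels, which carry the M-current that restrains firing in neurons. KCNQ5 (chromosome 6, 72621792 to 73198851) was at 74.3, 70 and 76 CPM in vehicle-treated EW8 and at 30.3, 29.2 and 33.2 CPM with doxycycline, a log2 change of -1.25 (SE 0.08, adjusted p 5.78e-10). Within TC71 it was at 21.5, 25.3 and 25.8 CPM with vehicle and 28.8, 29.7 and 31.5 CPM with doxycycline, a difference of 0.31 (SE 0.08, adjusted p 0.00507). This last value was 0.15 (adjusted p 0.13) without TC71 vehicle replicate 1. The responses differed by 1.56 (SE 0.12, adjusted p 2.58e-08), and after doxycycline KCNQ5 stood at 30.9 ± 2.04 CPM in EW8 and 30 ± 1.38 CPM in TC71, so the induced groups overlapped where the vehicle groups had not.

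KCNQ3, of the same family, was at 3.58 ± 0.204 and 2.14 ± 0.439 CPM in EW8 (-0.74, adjusted p 0.159).

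KCNC4, KCNH4 and KCNH7 were further pore genes with a call. KCNC4 encodes Kv3.4, a fast inactivating channel. It rose from 5.37, 5.34 and 6.95 CPM to 16.3, 13.9 and 14.8 CPM in EW8 and from 6.15, 3.59 and 3.53 CPM to 22.3, 22.2 and 18.8 CPM in TC71, log2 changes of 1.35 (SE 0.18, adjusted p 6.73e-06) and 2.26 (SE 0.18, adjusted p 9.41e-09). KCNH4, of the ether-a-go-go family, rose from 1.99 ± 0.478 to 5.87 ± 1.02 CPM in EW8 (1.56, SE 0.30, adjusted p 0.000361). Within TC71 it went from 0, 2 and 0 counts to 9, 22 and 14 counts, a ratio of 30 (95% counting interval 4.88 to 1238, adjusted p 2.94e-05). KCNH7, which encodes the neuronal channel Erg3, fell from 1.69, 1.48 and 1.99 CPM to 0.967, 0.949 and 0.548 CPM in EW8 (-1.05, SE 0.20, adjusted p 0.000269). That fold passed under the limit without EW8 vehicle replicate 3 (-0.89), without EW8 doxycycline replicate 3 (-0.81) and with a stricter count filter (-0.99). In TC71 it was at 18, 15.6 and 16.3 CPM and 19.2, 18.1 and 20.1 CPM (0.20, adjusted p 0.277), and the difference in response was 1.26 (SE 0.24, adjusted p 0.00117), or 0.96 without EW8 doxycycline replicate 3. Of its exons, 3.8% overlap GCA on the opposite strand.

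Silent subunits form no channel by themselves and change the gating of the pores they join. KCNG1 rose from 12.7, 15 and 11.9 CPM to 54.3, 56.3 and 49.6 CPM in EW8 (2.02, SE 0.19, adjusted p 7.93e-08) and from 0.115, 0.129 and 0.563 CPM to 2.57, 1.58 and 2.05 CPM in TC71 (2.97, SE 0.34, adjusted p 9.39e-07). The TC71 value of KCNG1 was 2.56 without TC71 vehicle replicate 1 and 4.005 without TC71 vehicle replicate 3. Its difference in response, 0.96 (adjusted p 0.122) with all libraries, was 1.94 (adjusted p 0.00143) without TC71 vehicle replicate 3. KCNV1 rose in TC71 from 2.98, 5.68 and 5.14 CPM to 21.5, 19.1 and 18.8 CPM (2.10, SE 0.26, adjusted p 1.9e-06), or by 1.79 without TC71 vehicle replicate 1. In EW8 KCNV1 stayed under 0.5 CPM in every library (-0.67, adjusted p 0.266), and the difference in response was 2.77 (SE 0.53, adjusted p 0.000917). Without EW8 doxycycline replicate 1 these values were -1.51 (adjusted p 0.0313), past the call limits, and 3.55. KCNG3 fell in TC71 from 1.1 ± 0.0948 to 0.528 ± 0.143 CPM (-1.06, SE 0.28, adjusted p 0.00446), a call lost without TC71 doxycycline replicate 1 (-0.94) or 3 (-0.96).

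Accessory subunits held the member with the widest gap in response between the lines among those detected in all groups. KCNAB1 (chromosome 3, 156037701 to 156539138) encodes a beta subunit that speeds the inactivation of Kv1 channels. Its level was 1.71, 1.59 and 0.862 CPM in vehicle-treated EW8 and 2.85, 1.7 and 1.96 CPM with doxycycline, which overlap (0.68, SE 0.22, adjusted p 0.0181). Within TC71 it rose from 1.39, 1.26 and 1.75 CPM to 87.5, 86.2 and 87.3 CPM, a log2 change of 5.90 (SE 0.20, adjusted p 2.2e-14). Vehicle levels of the lines did not differ beyond their spread (0.09, SE 0.23, adjusted p 0.749), and the responses differed by 5.22 (SE 0.30, adjusted p 7.06e-10).

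KCNAB2 differed by 0.97 in EW8 (SE 0.13, adjusted p 1.01e-05) and by 0.95 in TC71 (SE 0.13, adjusted p 5.68e-06), under the fold limit in both, and in EW8 over it in 7 of 19 alternatives. KCNAB3 went from 29.8 ± 0.0734 to 16.7 ± 2.42 CPM in EW8 (-0.83, SE 0.12, adjusted p 2.3e-05) and from 13.1 ± 0.906 to 4.84 ± 0.852 CPM in TC71 (-1.44, SE 0.13, adjusted p 6.02e-08), where it was called. KCNE3 and KCNE4 encode single-span subunits that modify Kv7 and Kv1 channels. Per kilobase they were the most abundant members in vehicle cells, at 31.7 and 28.7 CPM per kilobase in EW8 and 41.8 and 43.2 in TC71. KCNE4 was at 119, 119 and 116 CPM in vehicle-treated EW8 and 214, 207 and 217 CPM with doxycycline, a difference of 0.85 (SE 0.06, adjusted p 7.44e-10) under the fold limit. In TC71 it was at 182, 167 and 185 CPM and 169, 171 and 188 CPM (-0.02, SE 0.06, adjusted p 0.839), and the difference in response was -0.86 (SE 0.08, adjusted p 3.54e-07). KCNE3 was at 117 ± 4.87 and 122 ± 4.65 CPM in EW8 (0.07, adjusted p 0.634). TC71 vehicle libraries were at 193, 135 and 133 CPM and doxycycline libraries at 120, 116 and 117 CPM (-0.38, adjusted p 0.00444), with replicate 1 highest and a difference of -0.26 (adjusted p 0.000288) without it.

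**Figure D3:**
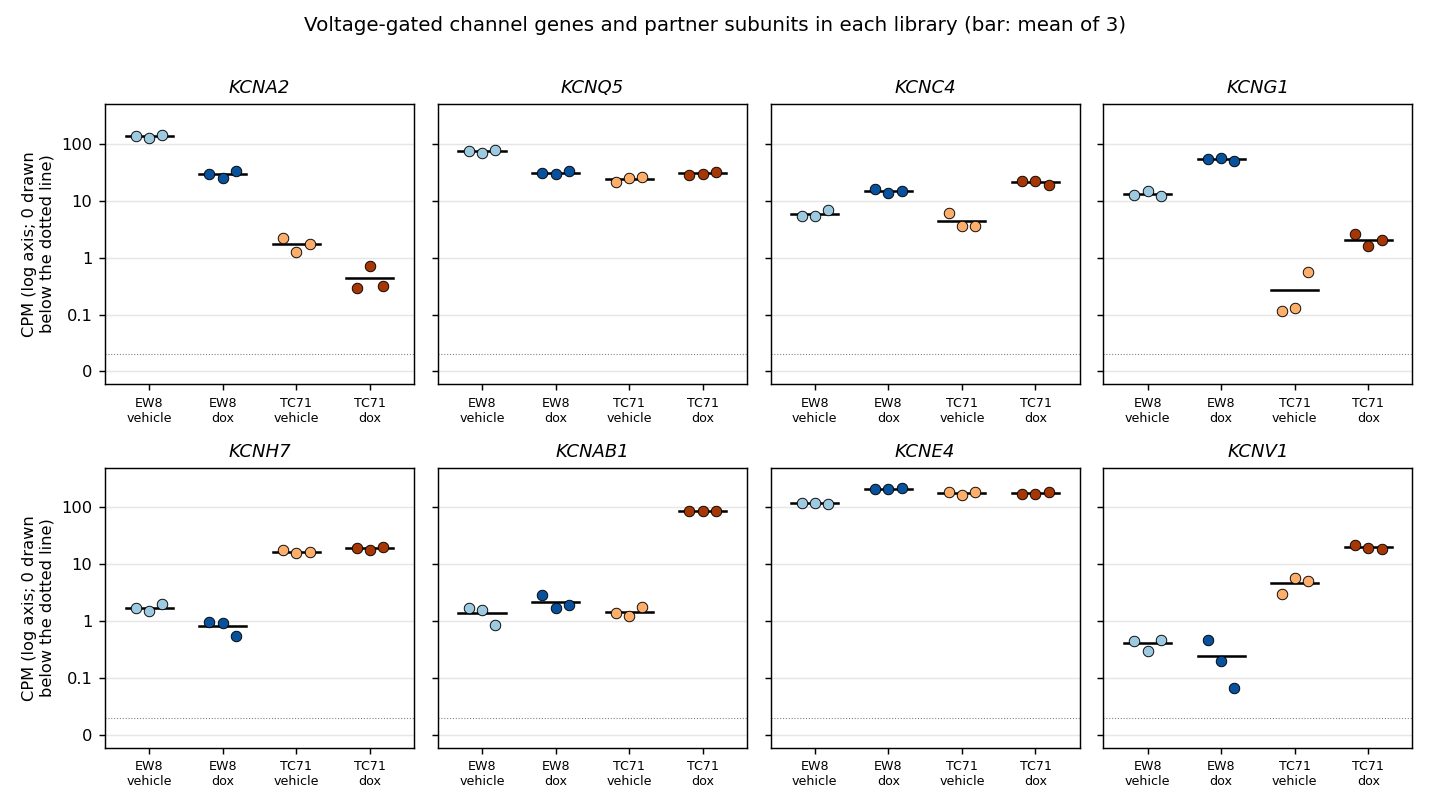
CPM on a log axis in each of the 12 libraries for 8 voltage-gated channel genes and partner subunits, with points for libraries, bars for the mean of 3 and zeros drawn under the dotted line. KCNA2 was lower with doxycycline in both lines, KCNQ5 in EW8 alone, and KCNAB1 rose to 86.2 to 87.5 CPM in TC71 while the EW8 libraries overlapped.

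The difference of the responses was tested directly. In either direction 7.05% of all tested genes were called. A larger log2 response in TC71 was called for 11 members (19.3%), against 4.18% of all tested genes, of which 10 are named here: KCNN1, KCNN4, KCNMB4, KCNK6, KCNJ5, KCNAB1, KCNV1, KCNH4, KCNH7 and KCNQ5. Leaving out TC71 vehicle replicate 3 ended the call of KCNH4 (adjusted p 0.0625). For KCNMB4, KCNH7 and KCNQ5 the value reflects a lower level with doxycycline in EW8 and none called in TC71. No member was called with a smaller response in TC71, against 2.87% of all genes by edgeR. By adjusted p alone 3 passed (KCNE4, KCNAB3 and KCNE3), against 7.07% of all genes. Further, 3 had an unadjusted p under 0.05 with a log2 difference under -1, DESeq2 called 2, and 3 were called without TC71 vehicle replicate 1.

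Summed over the 95 members, the level was 150.2 ± 3.23 CPM per kilobase in EW8 vehicle cells and 198.2 ± 6.6 with doxycycline, and 117.8 ± 9.05 and 166.7 ± 1.7 in TC71 (SD, n = 3). Most of the gain lay in the calcium-activated class. In EW8 it made up 15.7%, 16.8% and 17.3% of the summed level with vehicle and 32.4%, 30.5% and 28.6% with doxycycline, and in TC71 6.95%, 6.57% and 6.6% with vehicle and 29.1%, 30.6% and 27.1% with doxycycline. KCNN1 by itself was 13.3% of all members in EW8 vehicle cells and 26.9% with doxycycline, and 5.12% and 22.1% in TC71. Voltage-gated genes summed to 113.1 ± 1.65 and 124.4 ± 1.02 CPM per kilobase in EW8 and 108.1 ± 8.52 and 111.4 ± 1.99 in TC71. Their share of the sum was 75.3% and 62.8% in EW8 and 91.8% and 66.8% in TC71. These values include accessory genes and are not those of pores alone. Accessory members of all classes, KCNE3 and KCNE4 foremost, made up 48.2% and 46.9% of the sum in EW8 and 76.8% and 55.1% in TC71. Among pore-forming and silent genes alone, calcium-activated pores were 27.3% ± 0.71 and 55.4% ± 2.43 in EW8 and 25.9% ± 4.07 and 63% ± 1.22 in TC71. These shares describe transcripts, and no test was made on them.

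**Figure D4:**
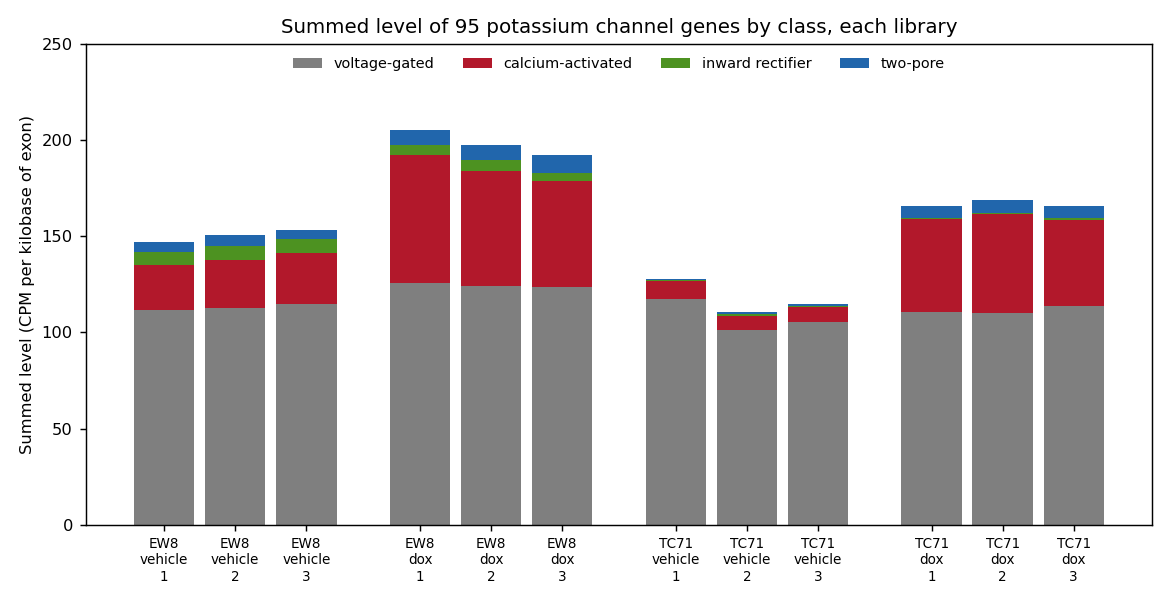
Summed level of the 95 potassium channel genes in CPM per kilobase of exon, stacked by class, with 1 bar for each of the 12 libraries. The calcium-activated part is 23.1 to 26.5 in EW8 vehicle libraries and 55 to 66.5 with doxycycline, and 7.27 to 8.9 and 44.8 to 51.5 in TC71. The voltage-gated part, accessory genes included, lies between 101.2 and 125.6 in all libraries.

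The lines differed in these genes before any induction. Under vehicle 27 members (47.4%) were called lower in TC71 than in EW8, against 18.9% of all tested genes, and 8 (14%) higher, against 11.6%. The median log2 difference, TC71 minus EW8, was -0.82 for the members and -0.04 for all tested genes, and -0.80 with members that had no counts in a line set to their bound. A lower level in TC71 was not particular to potassium channel genes. Among 16 tested sodium, calcium and pacemaker channel genes, 12 (75%) were called lower in TC71 and 1 (6.25%) higher, with a median of -4.12. Of 8 inward rectifiers tested, 5 were lower in TC71: KCNJ4, KCNJ5, KCNJ8, KCNJ12 and KCNJ18. KCNJ5 had 10, 4 and 14 counts in EW8 vehicle cells and none in TC71 vehicle cells. Its bound was 1.62-fold, under the fold limit. KCNJ12 was at 13 to 15.6 CPM in EW8 and at most 0.258 CPM in TC71 (-6.91, SE 0.50, adjusted p 8.56e-10). KCNJ4, the Kir2.3 gene, was at 3.94 to 4.96 and 0.115 to 0.564 CPM (-3.81, SE 0.59, adjusted p 1.89e-05), and KCNJ8 at 2.87 to 3.45 and 0 to 0.233 CPM (-4.85, SE 0.55, adjusted p 3.72e-07). Without 1 TC71 vehicle library, these values reached -8.47 for KCNJ12 and -4.64 for KCNJ4 (both without replicate 2), and -5.85 (without replicate 3) and -4.21 (without replicate 2) for KCNJ8.

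Of 17 voltage-gated pore genes, 10 were lower in TC71, KCNQ5 among them (-1.60, SE 0.08, adjusted p 9.19e-12). KCNA2 differed by -6.31 (SE 0.17, adjusted p 1.4e-15), and KCNQ3 was higher in EW8 by a ratio of 74.8 (95% counting interval 28.9 to 277). KCND2, an A-type channel gene, was lower in TC71 by at least 7.23-fold, with no count in any of its libraries, and KCND1 differed by -2.30 (SE 0.16, adjusted p 4.11e-10). KCNH2, the hERG gene that carries the repolarising current of heart, was at 21.4 to 27.2 CPM in EW8 and 4.32 to 8.66 CPM in TC71 (-1.95, SE 0.20, adjusted p 1.06e-07, or -1.62 without TC71 vehicle replicate 1). KCNH6 was higher in EW8 by a ratio of 96.7 (16.9 to 3864) and KCNH4 by 162.7 (28.7 to 6471). KCNC1, at few counts, was lower by a ratio of 5.04 (2.18 to 13.6) and lost its call in 4 of 17 alternatives, those without EW8 vehicle replicate 2 or any TC71 vehicle replicate.

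Among silent and accessory genes, KCNS3 differed by -5.39 (SE 0.23, adjusted p 5.6e-13), KCNG1 by -5.65 (SE 0.29, adjusted p 8.08e-12, or -6.69 without TC71 vehicle replicate 3), KCNG3 by -1.47 (SE 0.25, adjusted p 5.15e-05), KCNAB3 by -1.18 (SE 0.13, adjusted p 1.62e-07) and KCNIP3, the calcium sensor also known as DREAM, by -1.71 (SE 0.23, adjusted p 2.65e-06). Lower two-pore genes were KCNK6 (-3.34, SE 0.14, adjusted p 3.97e-13) and KCNK5 (-4.46, SE 0.54, adjusted p 8.81e-07, or -5.15 without TC71 vehicle replicate 2), the TASK-2 gene. Calcium-activated genes lower in TC71 were KCNN1, KCNN3, KCNN4, KCNMA1 (-4.43, SE 0.34, adjusted p 2.45e-09) and KCNMB4 (-2.64, SE 0.17, adjusted p 1.67e-10). KCNT2 was 6.68 ± 0.422 and 6.75 ± 0.81 CPM, and its libraries overlapped between the lines.

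Among the 8 members higher in TC71 were 4 voltage-gated pore or silent genes. KCNF1, a silent subunit, was at 0.018 to 0.316 CPM in EW8 and 4.28 to 6.44 CPM in TC71 (5.51, SE 0.45, adjusted p 5.49e-09). EW8 vehicle replicate 1 was the highest of its group, and without it this value was 7.42, while the EW8 response of KCNF1 went from 0.93 (adjusted p 0.246) to 2.84 (adjusted p 0.0019) and the difference in response from -0.48 (adjusted p 0.71) to -2.39 (adjusted p 0.0265), both past the call limits. KCNV1 differed by 3.48 (SE 0.33, adjusted p 4.07e-08), KCNH7 by 3.26 (SE 0.17, adjusted p 7.1e-12) and KCNH5, the Eag2 gene, by 1.64 (SE 0.22, adjusted p 2.66e-06). KCNAB2 was higher by 1.24 (SE 0.13, adjusted p 2.12e-07) and KCNK3 by a ratio of 7.32 (95% counting interval 3.14 to 20.9). KCNE1, with no counts in EW8 and 2, 2 and 12 in TC71, and KCNK12, with 0, 4 and 0 and 24, 22 and 3, rest on few reads. Leaving out TC71 vehicle replicate 3 ended the call of KCNE1 (adjusted p 0.084), and that of KCNK12 was lost in 3 of 17 alternatives, those without EW8 vehicle replicate 1 or 3 or TC71 vehicle replicate 2. Of the 10 members called higher in EW8 with doxycycline, 6 were among those lower in TC71 vehicle cells, and so were 8 of the 14 called higher in TC71. The share lower in TC71 vehicle cells was 47.4% over all tested members, and a link with the response was not tested. These comparisons share the vehicle libraries.

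**Figure D5:**
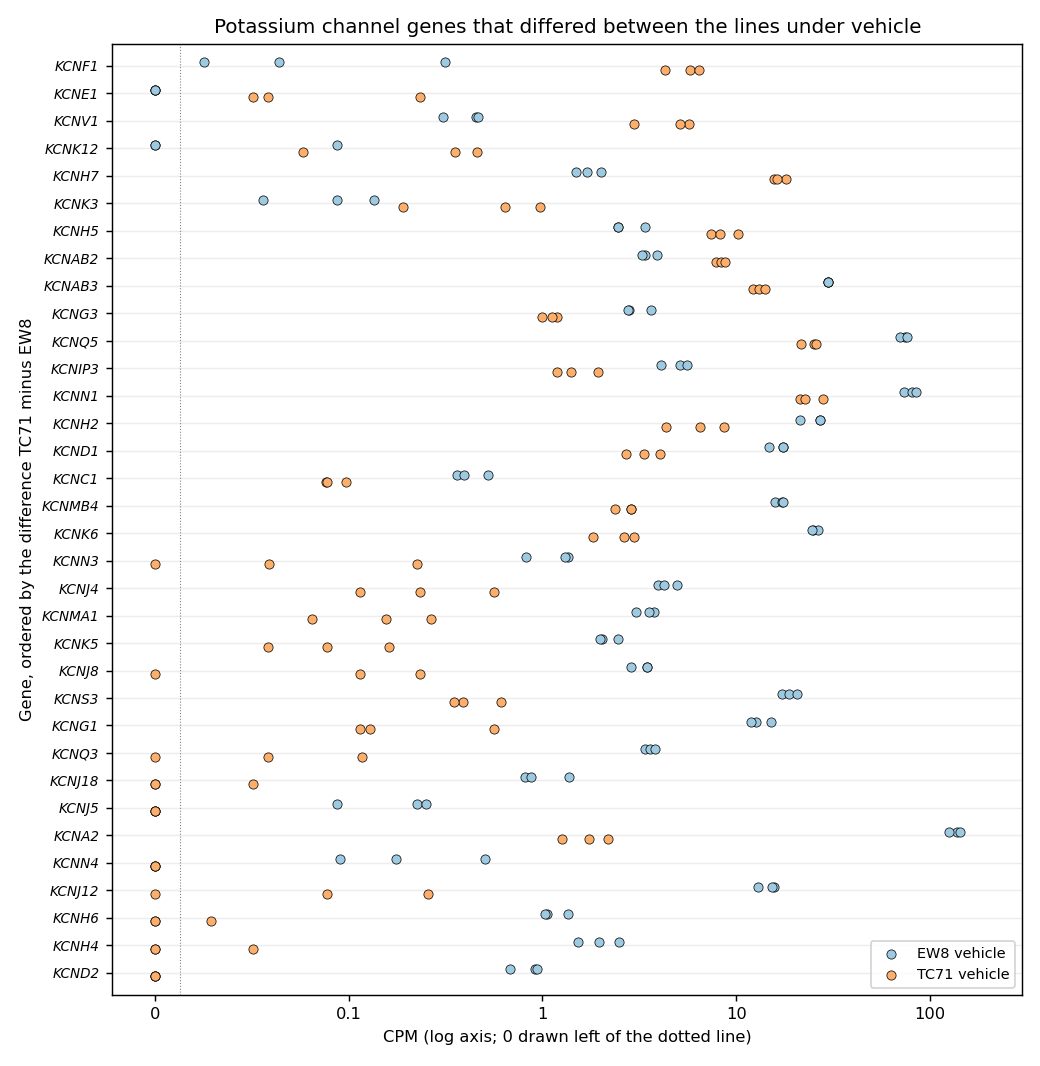
CPM on a log axis in the 3 vehicle libraries of EW8 and the 3 of TC71 for 34 of the potassium channel genes called between the lines, ordered by their difference, with zeros drawn left of the dotted line, where points can coincide. The 26 lower genes drawn run from KCNAB3 down to KCND2, which had no counts in TC71, and the libraries of the lines overlap for 1 gene, KCNK12.

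Other genes of potassium and cation handling give a setting for these counts. For these lists too, the shares over all tested genes were 11.4% higher and 3.38% lower in EW8, and 12.3% and 3.67% in TC71. Of 23 sodium, calcium and pacemaker channel genes, 16 were tested, with 1 called higher and 2 lower in EW8, 2 higher and 2 lower in TC71, and medians of -0.62 and 0.16. CACNA1A, the P/Q-type calcium channel gene, rose from 7.23 ± 0.704 to 86.7 ± 0.899 CPM in EW8 (3.58, SE 0.12, adjusted p 2.81e-14). SCN1A fell in both lines (-1.01, adjusted p 0.00858, and -1.97, adjusted p 1.91e-05), and CACNA1I, a T-type calcium channel gene, fell in EW8 (-1.12, adjusted p 6.65e-07). In TC71 CACNA1A (adjusted p 0.00802) and SCN4A (adjusted p 0.000902) were called higher, both at few counts. CACNA1A was at 0.0631 ± 0.0416 CPM there with vehicle and 0.197 ± 0.0779 CPM with doxycycline.

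Among 13 partner proteins of potassium channels, 6 were tested. LRRC38, a gamma subunit of BK, was called higher in both lines, from no counts to 8.77 ± 1.82 CPM in EW8 and from 0.128 ± 0.117 to 1.67 ± 0.342 CPM in TC71 (adjusted p 8.04e-09 and 1.37e-05). ABCC9, the sulfonylurea receptor of ATP-sensitive channels, rose in EW8 from 0.111 ± 0.135 to 11.4 ± 1.54 CPM (6.66, SE 0.55, adjusted p 1.31e-08). Of 14 potassium pump and cotransporter genes, 11 were tested, with 1 higher and 1 lower in EW8 and 4 higher and 2 lower in TC71. ATP1B1, a beta subunit of the sodium pump, rose in TC71 from 8.35 ± 0.472 to 20.2 ± 1.05 CPM (1.27, SE 0.10, adjusted p 4.91e-09). ATP1B2 fell in both lines, by 1.29 on the log2 scale in EW8 (adjusted p 3.39e-07) and by 2.11 in TC71 (adjusted p 2.26e-07). SLC12A7, a potassium-chloride cotransporter gene, fell in TC71 from 0.787 ± 0.128 to 0.333 ± 0.176 CPM (-1.24, adjusted p 0.000734). In EW8 it was far higher and rose from 97.2 ± 3.17 to 139 ± 10.3 CPM (0.52, adjusted p 0.000107), under the fold limit. The difference in response was -1.75 (adjusted p 0.000143).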

How the data were processed

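Polyadenylated RNA of 12 samples was sequenced as paired reads. Per the file headers and the study's methods, the authors checked reads with FastQC, aligned them with STAR to hg38 and counted exons of GENCODE 29 genes with featureCounts 2.0.1. The deposited table held raw integer counts for each gene. Mates were counted separately, strand was not used, and multi-mapped or ambiguous reads were dropped, so overlapping genes and close paralogs are uncertain. The authors' table also gives exon length in bases, used here as deposited (unit: other, a length) for levels per kilobase.

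Counts were fitted with edgeR 4.0.16 (R 4.3.3): filterByExpr left 21013 genes with 99.95% of counts, scaling was by TMM, and all 12 libraries entered 1 quasi-likelihood fit of 4 groups. DESeq2 1.42.0, other scalings and filters, a replicate block and leaving out libraries were alternatives. The steps were tested on simulated data. Groups came from the sample titles. Nothing states that replicates were separate cultures, so p-values measure the spread between these samples. Same-numbered vehicle and doxycycline libraries did not deviate together (correlations -0.0282 to 0.00977).

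The members and gene lists were chosen with earlier results of these data known. Named were all members called in any comparison and the 2 most abundant per class in each line under vehicle, and list genes called in a response, except a few items that are not reported here but stay in the counts. A group at or under 6 counts in each library was treated as at the floor, folds against it are bounds or ratios with exact 95% intervals, and these cover counting error only. Promoter sequences are from RefSeq, GRCh38.p14.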

Additional observations from a re-analysis of the deposited data

Results flagged for a closer look

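For 14 members described here the response to doxycycline differed between the lines by the interaction test (edgeR quasi-likelihood test, adjusted p under 0.05, TC71 minus EW8 on the log2 scale). Among members above the floor in all groups the differences were 5.22 for KCNAB1, 2.77 for KCNV1, 1.62 for KCNK6, 1.56 for KCNQ5, 1.26 for KCNH7, 1.20 for KCNN1, 1.16 for KCNMB4 and 0.91 for KCNC4. The difference was negative for KCNE4 (-0.86), KCNAB3 (-0.61) and KCNE3 (-0.45). Fitted values of 9.20 for KCNN4, 6.66 for KCNJ5 and 3.05 for KCNH4 have a group at or under 6 counts in each library, depend on the prior count and are no measure of size.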

How the results depend on the processing

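Of 80 calls on members, 68 held in every alternative in which they could be tested, and no called value changed sign in 1423 repeats. A minimum of 10 counts in every library left 25 members and 3 higher and 3 lower in EW8, 4 higher in TC71, 6 with a larger and 1 with a smaller response in TC71, and 3 higher and 11 lower in TC71 under vehicle. Fewer members were tested there, and among those still tested KCNAB2 was gained in EW8, KCNH7 was lost in EW8 and KCNG3 was gained as the smaller response. Without the fold limit, 12 were lower in EW8, 11 lower in TC71 and 3 had a smaller response in TC71. The last count was 1 with RLE scaling, with library size scaling and with no filter, 2 with DESeq2, and 0 to 3 when single libraries were left out. The cause of these differences was not tested. Replicate numbers are shared between groups but do not pair the samples: with the replicate block, 3 members were lower in TC71 in place of 4 and the other counts stayed (10, 6, 14, 11, 0, 8 and 27). Single libraries left out gave 10 to 11 higher and 4 to 7 lower in EW8, 14 to 15 higher and 3 to 6 lower in TC71, 9 to 11 larger responses, and 7 to 9 higher and 26 to 29 lower under vehicle. Low counts limit, among others, KCNK7, KCNE1, KCNK12, KCNC1, KCNJ5, KCNK9 and, in TC71, KCNH4.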
